A study of Drosophila melanogaster with 3 samples.

Results

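The Achaete-scute complex is a run of basic helix-loop-helix transcription factor genes near the tip of the X chromosome. Its members achaete (ac), scute (sc) and lethal of scute (l(1)sc) are proneural genes, which give ectodermal cells the ability to become neural precursors, and asense (ase) is expressed in the precursors themselves. sc is also known as sisterless-b, an X-linked signal that is read very early in sex determination, before most of the zygotic genome is transcribed. Zelda (ZLD) is a maternally supplied zinc-finger protein that binds a family of short sequences called TAGteam elements and is needed for the first zygotic transcription, and regulatory DNA of sc was among the places where such elements were first described.

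The sites described here are the ZLD peaks with an interval midpoint between 255000 and 335000 on X of the dm3 assembly, and midpoints within 150 bp of each other, in any of the 3 deposited peak lists, were joined into 1 site. This gave 22 sites, from 49 peaks, out of 16200 sites in the genome and 2123 on X. The window holds ac (264063 to 264980), sc (290092 to 291530) and l(1)sc (303755 to 304850), all on the plus strand. It does not hold ase (354532 to 357209), whose start lies 19532 bp beyond its right end, so the 5 sites within 5000 bp of ase are given apart and are not counted among the 22. All 4 genes lie inside the span of CG32816 (210608 to 364670), the left end of the window cuts y, the pigmentation gene yellow (250541 to 255278), and pcl, called Pgcl in RefSeq, starts at 330171, between l(1)sc and ase. Besides sc, l(1)sc and Pgcl, no protein-coding gene stands between ac and ase in the RefSeq annotation of the Release 6 assembly, which was used for gene order only.

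ZLD was mapped by chromatin immunoprecipitation and sequencing in wild-type Oregon R embryos that were sorted by hand into mitotic cycles 8 to 9 (cycle 8), cycles 13 to 14 (cycle 13) and late cycle 14, that is before, during and after the transfer of control from maternal to zygotic transcripts. All used the affinity-purified anti-ZLD antibody, on 3.7, 6.6 and 6 µg of chromatin. There was 1 library per stage, so stage and library cannot be told apart, no test between stages was possible, and differences are given by size. Each pool mixes nuclei of whole embryos at adjacent cycles, and fewer nuclei with ZLD at a site cannot be told apart from less ZLD at it in each nucleus.

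The libraries held 13496488, 18870755 and 17481411 mapped reads, in the order of the stages, and the lists 11374, 10471 and 9432 peaks. A start position held 4.27, 1.97 and 2.44 reads on average, so the cycle 8 library had the most copies. Coverage below is the number of reads, each extended to 150 bp, over the centre of a site, per 10000000 reads of its library. The median coverage of the chromosome arms was 4.45, 3.71 and 3.43 at the 3 stages, and the mean coverage in the window more than 500 bp from a site was 4.94, 4.99 and 5.63. Brackets hold exact 95% intervals, Poisson for coverage, conditional for ratios of 2 read numbers and Clopper-Pearson for shares. They cover counting error only, and copies of a read need not be independent molecules.

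Each site is named by the gene with the nearest start and its distance from that start in bp, with a minus sign for upstream. A site in a gene or within 5000 bp of it is called near the gene.

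The complex carried strong ZLD sites just upstream of ac, sc and l(1)sc at all 3 stages. Behind sc, sc +3894 was also strong. At cycle 8 its coverage (2437) was above that of the sites just upstream of l(1)sc (2066) and ac (1351). The other sites, between and behind these, were weaker, and many differed widely between stages. The window had 11, 18 and 20 listed peaks at the 3 stages. Of the 22 sites, 9 were in all 3 lists, beside 31.8% of all sites of the genome. Another 7 were listed at cycle 13 and late cycle 14 only, 4 at late cycle 14 only and 2 at cycle 8 and cycle 13 only, and none was listed at cycle 8 alone.

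**Figure D1:**
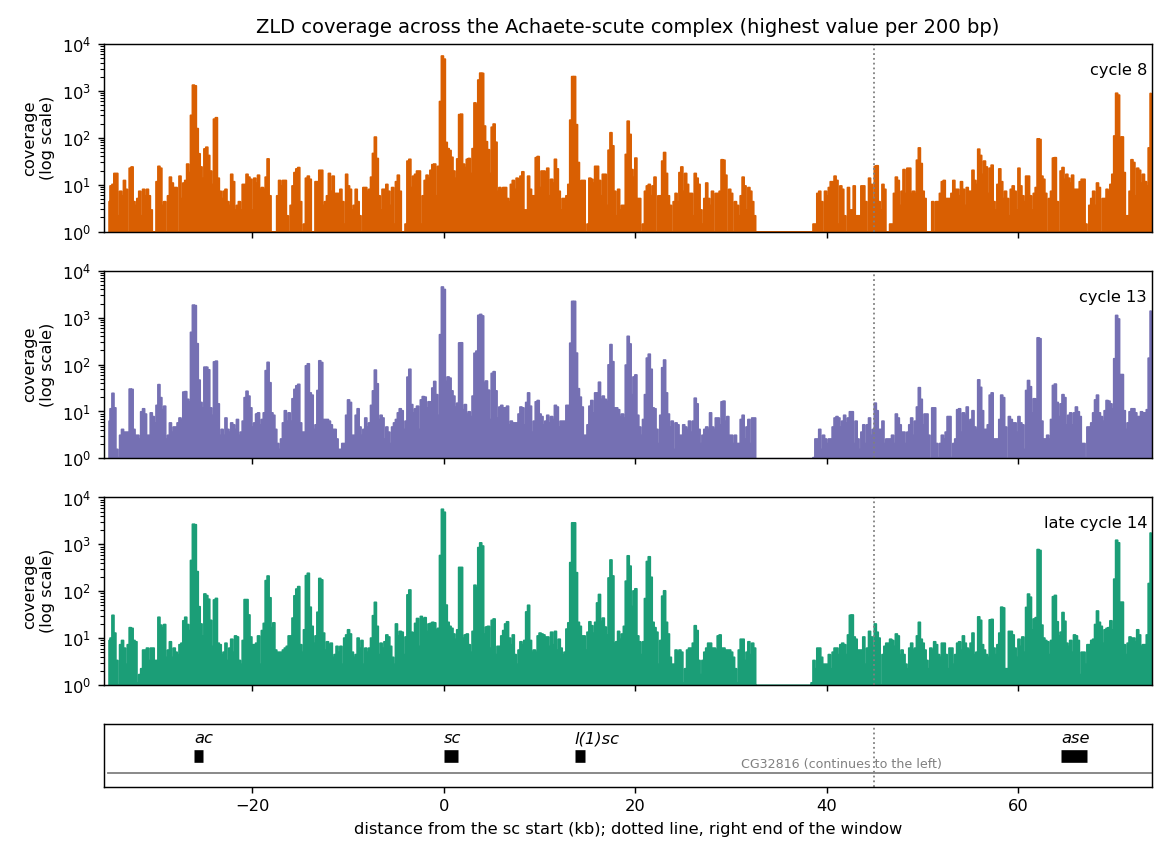
ZLD coverage by stage (vertical axis, highest value per 200 bp on a log scale, per 10000000 reads) against distance from the sc start in kb, with the genes below and a dotted line at the right end of the window. The sites just upstream of ac, sc and l(1)sc are the highest of the window apart from sc +3894, no such site stands at the ase start, and a run of 5935 bp to the right of l(1)sc has no read at any stage.

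In reads over the whole window, the locus took 0.245%, 0.220% and 0.270% of the 3 libraries, which was 3.68, 3.31 and 4.06 times what an even spread over the arms would give. Within 150 bp of a site centre lay 76.2% (75.8 to 76.7) of the 33023 cycle 8 reads of the window, 76.2% (75.7 to 76.6) of the 41584 cycle 13 reads and 79.8% (79.4 to 80.2) of the 47220 late cycle 14 reads. Cut into windows of the same 80 kb, the arms gave 1501 windows with a median of 9 sites, and 84 of them held 22 or more. In summed site coverage, 11, 29 and 17 of those windows reached the complex at the 3 stages, and on X 2 of 280 did at each stage.

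The site sc -128, in the promoter of sc (centre at 289964), had a cycle 8 coverage of 5667 (5541 to 5796), a cycle 13 coverage of 4604 (4508 to 4702) and a late cycle 14 coverage of 5730 (5618 to 5843). Scaled by total reads, it was thus as high at the end as at the start, and lower in between. The log2 ratio was -0.30 (-0.34 to -0.26) from cycle 8 to cycle 13, 0.32 (0.27 to 0.36) from cycle 13 to late cycle 14, and 0.02 (-0.03 to 0.06) over the whole span. With scaling by reads outside all sites or by the median of ratios over all sites, the last value was 0.26 or 0.21 instead. Among all 16200 sites sc -128 ranked 24, 34 and 17 at the 3 stages, and on X it ranked 2, 1 and 1. This site alone held 41.5% (40.8 to 42.3), 37.4% (36.8 to 38.1) and 35.8% (35.3 to 36.4) of the reads over the centres of the 22 sites.

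The promoter site of ac, ac -81 (263982), had a coverage of 1351 (1290 to 1415), 1892 (1831 to 1955) and 2741 (2664 to 2820). It was higher at each later stage, 2.03-fold in all, with a log2 ratio of 1.02 (0.94 to 1.10), and its rank in the genome went from 440 to 382 and 216. Counted over 300 bp the log2 ratio was 0.99, just short of 2-fold. With 1 read kept per start position and strand, its log2 ratio was -0.84 instead, where the reads over the centre started at 235, 299 and 298 of 300 possible positions and strands, so that this count is near its upper limit at the later stages.

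The promoter site of l(1)sc, l(1)sc -153 (303602), had a coverage of 2066 (1990 to 2144), 2274 (2206 to 2343) and 2939 (2859 to 3020). This is a smaller rise than at ac, 1.42-fold from cycle 8 to late cycle 14, with a log2 ratio of 0.51 (0.44 to 0.58). With 1 read per start the log2 ratios were -1.04 at l(1)sc -153 and -1.16 at sc -128. At both sites 300 of 300 starts were taken at both later stages.

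Ratios between sites of the same library do not depend on how libraries are scaled to each other. The sc promoter site had 4.19 (3.98 to 4.42) times the reads of the ac promoter site at cycle 8, and 2.43 (2.34 to 2.53) and 2.09 (2.02 to 2.16) times at the later stages. Against l(1)sc -153 it had 2.74 (2.63 to 2.87), 2.02 (1.95 to 2.10) and 1.95 (1.89 to 2.02) times the reads. The 3 promoters were therefore closer in level at late cycle 14 than at cycle 8, and most of the difference lay between cycle 8 and cycle 13. l(1)sc -153 had 1.53 (1.44 to 1.62) times the reads of ac -81 at cycle 8, then 1.20 (1.15 to 1.26) and 1.07 (1.03 to 1.12). Counted over 300 bp, the sc to ac ratio was 3.78, 2.05 and 1.90. With 1 read per start it was 1.26, 1.003 and 1.007, and the sc to l(1)sc ratio was 1.08, 1 and 1, where the sites are at or near the limit of 300 starts and levels can hardly differ.

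**Figure D2:**
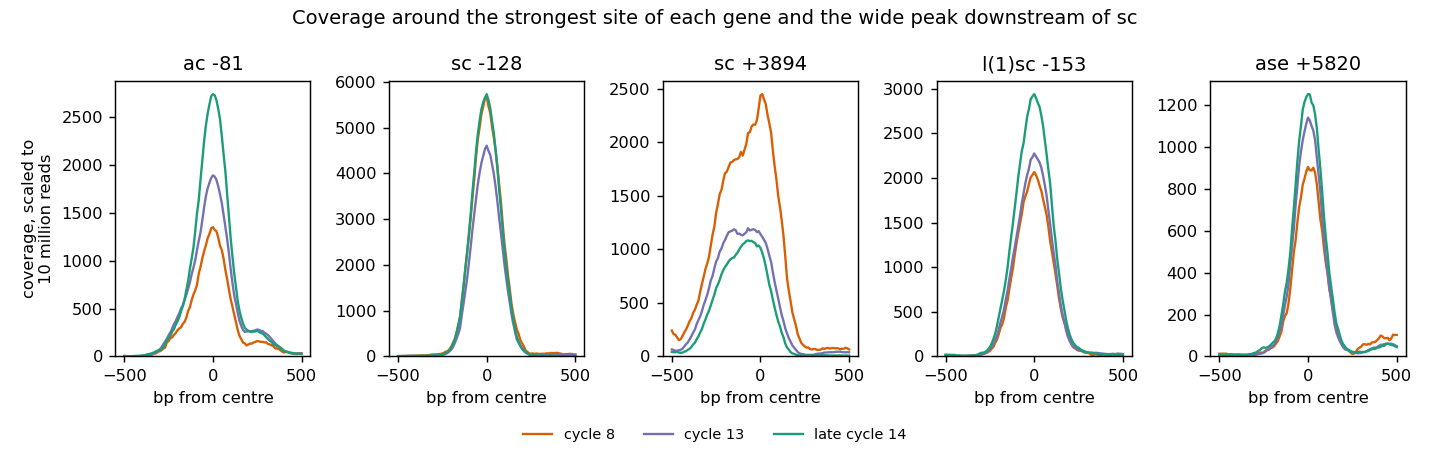
Coverage (vertical axis, per 10000000 reads, each panel with its own scale) against distance from the site centre in bp, 1 line per stage, at the strongest site near each gene and at sc +3894. The promoter peaks of ac, sc and l(1)sc keep their place and width, while sc +3894 is wider and its highest position lies 10 bp right of the centre at cycle 8 and left of it (-70 and -64 bp) later.

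The place of highest coverage at ac -81, sc -128 and l(1)sc -153 lay within 5 bp of the centre in every library. The width at 50% of the highest coverage was 187, 185 and 184 bp at sc -128, 194, 203 and 189 bp at ac -81, and 228, 229 and 230 bp at l(1)sc -153. These peaks thus differed between stages in height more than in position or width. The l(1)sc peak was the widest of the 3 at each stage.

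Around sc, 1 of the other sites was higher at late cycle 14, 1 was level when scaled by total reads and 3 were lower. At sc -3648 (286444), absent from the cycle 8 list, the coverage was 32.6 (23.7 to 43.8), 79.5 (67.3 to 93.3) and 109.3 (94.3 to 125.9), a log2 ratio of 1.74 (1.27 to 2.25) from cycle 8 to late cycle 14. At sc +1712 (291804), just past the end of the gene, it was 321.6 (292.0 to 353.3), 296.2 (272.2 to 321.8) and 330.1 (303.7 to 358.1). The stages overlapped there within counting error, with a log2 ratio of 0.04 (-0.14 to 0.22) from cycle 8 to late cycle 14. That ratio was 0.28 with scaling by reads outside all sites and 0.23 with the median of ratios.

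The sites further downstream of sc, before the gap that leads to l(1)sc, were all highest at cycle 8. sc +3894 (293986) ranked 174 in the genome at cycle 8 and had a coverage of 2437 (2354 to 2522), then 1141 (1094 to 1191) and 1013 (966.4 to 1061), 2.41-fold lower in all (log2 ratio -1.27, -1.35 to -1.18). Most of that difference lay between cycle 8 and cycle 13 (-1.09, against -0.17 after it). sc +3279 (293371) had 562.4 (523.1 to 603.8), 177.5 (159.0 to 197.6) and 132.7 (116.2 to 150.9), 4.24-fold lower. Its neighbour sc +3894 lies 615 bp away, the shortest distance between adjacent sites, and the deposited heights of sc +3279 were lower than these values and also went down with stage (351.5, 82.0 and 62.6).

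sc +5132 (295224) had 200.8 (177.6 to 226.2), 70.5 (59.0 to 83.5) and 25.2 (18.3 to 33.8), 7.98-fold lower in all, and it was not in the late cycle 14 list. It was the largest decrease among the 22 sites, with a log2 ratio of -3.00 (-3.49 to -2.53). Set against the sc promoter in the same library, sc -128 had 2.33, 4.03 and 5.66 times the reads of sc +3894, 10.1, 25.9 and 43.2 times those of sc +3279, and 28.2, 65.3 and 227.6 times those of sc +5132. The promoter thus stood further above each of the 3 downstream sites at each later stage, while its ratio to sc +1712 was 17.6, 15.5 and 17.4. With 1 read per start, log2 ratios from cycle 8 to late cycle 14 were -1.13, -1.50 and -2.62 at the 3 downstream sites. The value at sc -128 was -1.16. Of 300 possible starts, 278, 296 and 288 were taken at sc +3894 and 296, 300 and 300 at sc -128. Both sites are near the limit of this count, so it cannot show whether sc +3894 fell further than the promoter.

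The peak at sc +3894 was also the widest looked at, 379, 390 and 330 bp at 50% of its highest coverage. In a pair of places in it 80 bp apart, chosen after its profile had been seen, coverage at 3824 bp from the sc start was 2087, 1198 and 1084, and at 3904 bp it was 2450, 1118 and 969.6. These are the highest positions of the cycle 13 and of the cycle 8 library, so which place was the higher at those stages was fixed by the choice. At late cycle 14 the first place had 1.12 times the coverage of the second.

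**Figure D3:**
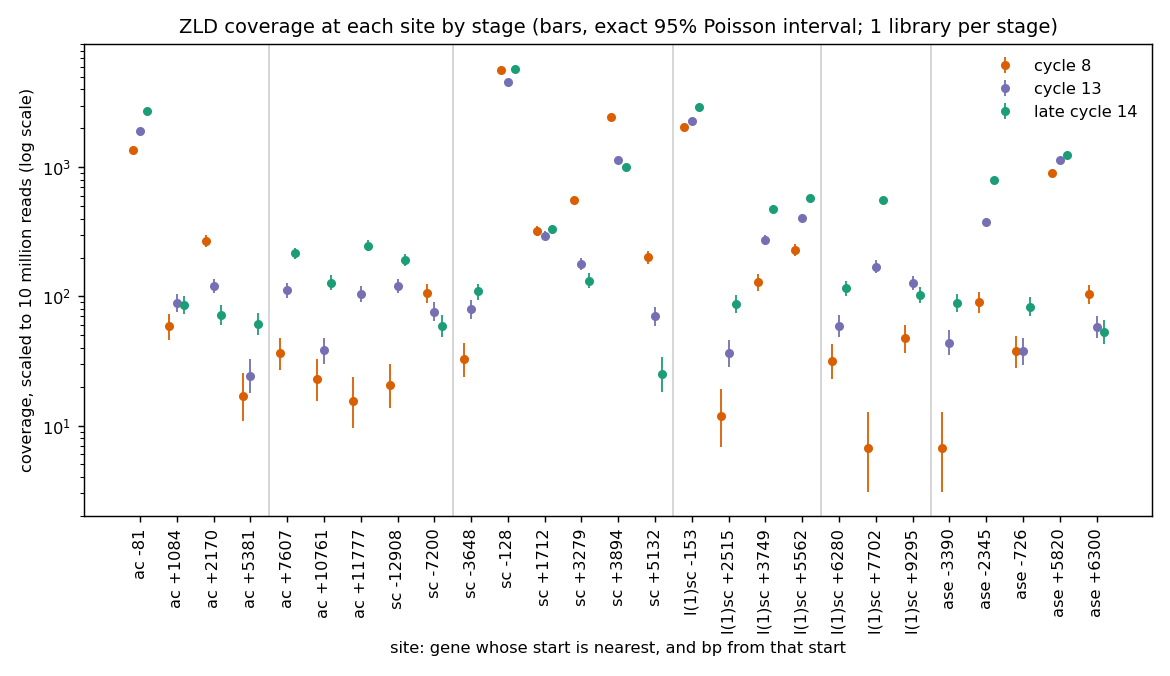
Coverage at each site (vertical axis, log scale, per 10000000 reads; points with exact 95% Poisson intervals, 1 library per stage) in order along the chromosome, with grey lines between the groups of sites. From sc +3279 to sc +5132 cycle 8 is the highest stage, and at all 7 sites at and behind l(1)sc it is the lowest.

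Near l(1)sc all 4 sites had more ZLD at late cycle 14 than at cycle 8, and 3 of them by at least 2-fold, beside 34.3% of all sites. l(1)sc +2515 (306270) had a coverage of 11.9 (6.78 to 19.3), 36.6 (28.4 to 46.3) and 87.5 (74.2 to 102.5), 7.38-fold higher, and was in the late cycle 14 list only. l(1)sc +3749 (307504) had 128.9 (110.5 to 149.6), 272.4 (249.3 to 297.0) and 474.8 (443.0 to 508.2), 3.68-fold higher. l(1)sc +5562 (309317) had 229.7 (204.8 to 256.7), 408.0 (379.7 to 437.9) and 577.8 (542.7 to 614.5), 2.52-fold higher. Each of these was higher at each later stage, with no overlap between the intervals of the stages. Those intervals count copies as separate reads, and the cycle 8 value of l(1)sc +2515 was 16 reads at 5 start positions. With 1 read kept per start position and strand, l(1)sc +3749 and l(1)sc +5562 were no longer past 2-fold, with log2 ratios of 0.96 and 0.57 in place of 1.88 and 1.33, while l(1)sc +2515 kept its size (2.94 in place of 2.88). Background subtraction moved l(1)sc +2515 to 3.505.

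Behind them stood 3 sites that were in no cycle 8 list. l(1)sc +7702 (311457) was the largest increase in the window, with 6.67 (3.05 to 12.7), 170.1 (152.0 to 189.8) and 556.6 (522.2 to 592.7), 83.5-fold higher and a log2 ratio of 6.38 (5.45 to 7.52). Its cycle 8 value was 9 reads at 4 start positions, 1.35 times the local background, so at cycle 8 it was hardly above the DNA around it. The size of the increase depended on how so low a value was counted. It was 28.0-fold with 1 read per start, 44.9-fold over 300 bp and 248.9-fold with the arm median subtracted. l(1)sc +6280 had 31.9, 59.4 and 115.6, and l(1)sc +9295 had 47.4, 127.2 (111.6 to 144.3) and 103.0 (88.5 to 119.2). Scaled by total reads, l(1)sc +9295 was the only one of the 3 that was highest at cycle 13, but its intervals at the later stages overlapped.

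Set side by side, the sites near l(1)sc were all higher at late cycle 14 than at cycle 8, while those near sc were mixed. From cycle 8 to late cycle 14, 1 of the 6 sites near sc was higher by at least 2-fold and 3 were lower, with a median log2 ratio of -0.63. Of the 4 sites near l(1)sc, 3 were higher and none lower, with a median of 1.61. Of all sites of the genome, 34.3% were higher and 39.7% lower by that size. With 1 read per start, 1 of the 6 near sc was higher and 4 lower (median -1.15). Near l(1)sc 1 of 4 was then higher and 1 lower (median 0.77), beside 30.2% higher and 36.01% lower of all sites. The count of higher sites was thus the same in both groups. The sites that became lower were sc -128 and l(1)sc -153, at or near the limit of 300 starts. There this count cannot follow the level. l(1)sc +3749 and l(1)sc +5562 fell below 2-fold (log2 ratios 0.96 and 0.57) while short of that limit. Their reads started at 53, 214 and 234, and at 74, 248 and 249, of the 300 starts. How the groups differed in sites higher by 2-fold thus depended on how reads were counted. The sites near sc held 67.6% (66.9 to 68.3) of the cycle 8 reads over the 22 centres, then 51.8% (51.2 to 52.4) and 45.9% (45.3 to 46.5). The sites near l(1)sc held 17.9% (17.3 to 18.4), 24.3% (23.8 to 24.9) and 25.5% (24.99 to 26.0).

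**Figure D4:**
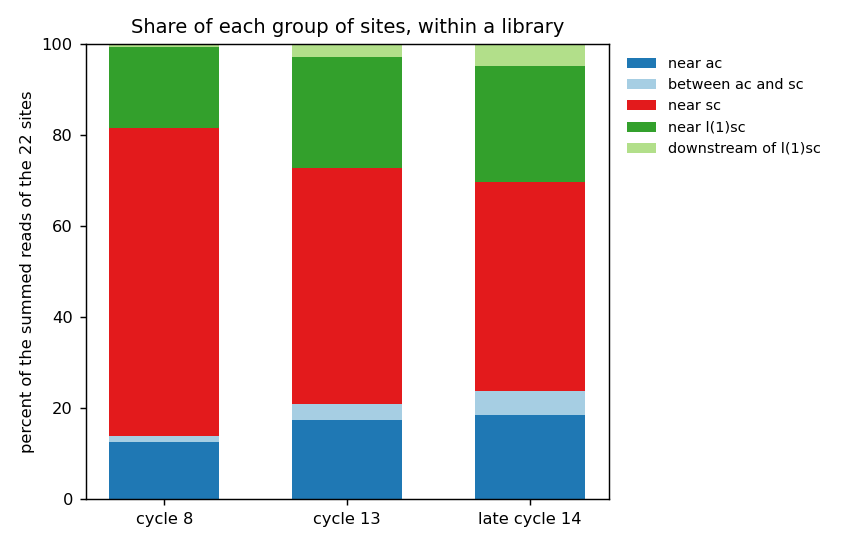
Percent of the reads over the centres of the 22 sites (vertical axis, from 0) held by each group of sites, 1 bar per stage. The share near sc goes from 67.6% at cycle 8 to 45.9% at late cycle 14, and every other group has a larger share at late cycle 14 than at cycle 8.

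Near ac the promoter site had 3 weaker neighbours. ac +2170 (266233) went the other way from its neighbours, with 269.7 (242.7 to 298.9), 120.8 (105.6 to 137.6) and 72.1 (60.0 to 85.8), 3.74-fold lower and a log2 ratio of -1.90 (-2.21 to -1.61). ac +5381 had 17.0, 24.4 and 61.2, and ac +1084, past the end of the gene, had 58.5, 89.0 and 86.4. The group as a whole held 12.4%, 17.3% and 18.5% of the reads over the 22 centres, and ac -81 alone held 9.91%, 15.4% and 17.1%.

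Between ac and sc, 4 of 5 sites had at least 2-fold more ZLD at the last stage than at the first, beside 34.3% of all sites. None of the 4 was in the cycle 8 list, and of all 4827 sites not in that list 3860 were higher by that size. ac +11777 (275840) had 15.6 (9.63 to 23.8), 104.4 (90.3 to 120.0) and 247.7 (224.9 to 272.2), 15.9-fold higher (log2 ratio 3.99, 3.36 to 4.70). sc -12908 (277184) had 20.7 (13.8 to 30.0), 120.8 (105.6 to 137.6) and 192.2 (172.2 to 213.9), 9.26-fold higher. These are the second and the third largest increases of the window. Their cycle 8 values were 21 and 28 reads, at 7 start positions each. The other two that were higher, ac +7607 and ac +10761, had log2 ratios of 2.57 and 2.47, while sc -7200, the only one of the 5 in the cycle 8 list, had 106.0, 76.3 and 58.9. The 5 together held 1.48%, 3.67% and 5.26% of the reads over the 22 centres, so even at late cycle 14 they were minor sites of the complex.

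**Figure D5:**
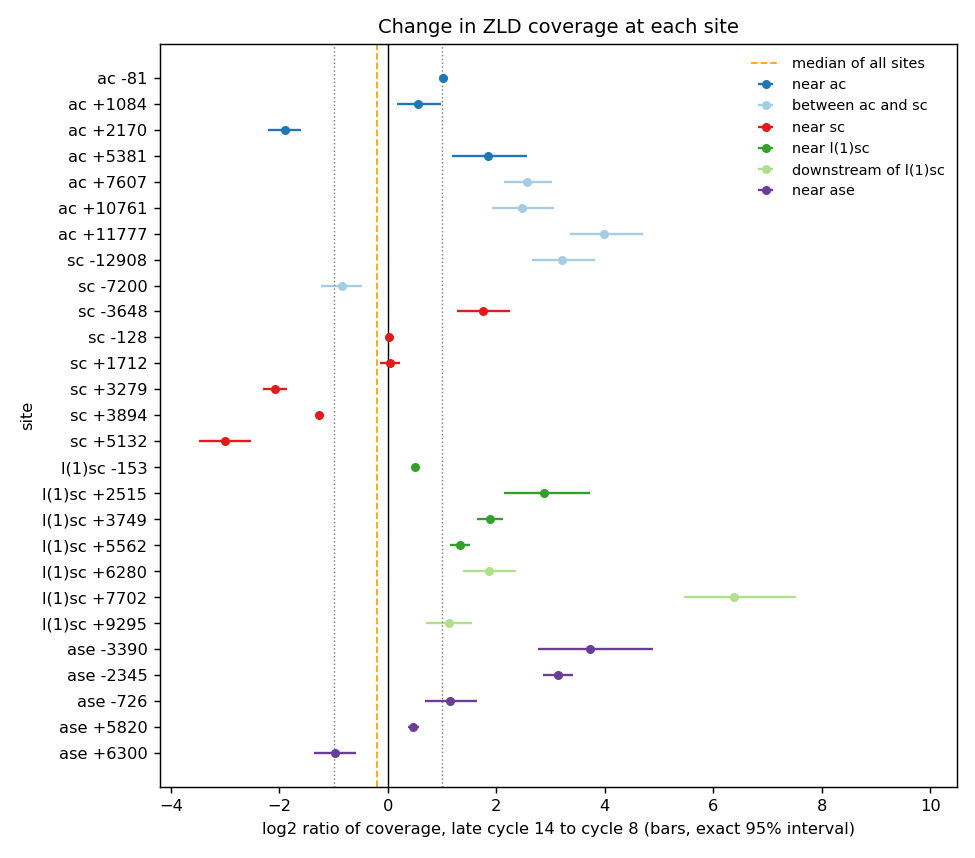
The log2 ratio of coverage at late cycle 14 to cycle 8 (horizontal axis, points with exact 95% intervals) for each site in order along the chromosome, colored by group, with dotted lines at a 2-fold change and a dashed line at the median of all sites, -0.19. Lower by 2-fold or more are ac +2170 and the run from sc +3279 to sc +5132, and l(1)sc +7702 stands alone at 6.38.

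Over all 22 sites, from cycle 8 to late cycle 14, 13 were higher by at least 2-fold, beside 34.3% of all sites, and 4 were lower, beside 39.7% of all sites. The median log2 ratio was 1.22, against -0.19 for all sites and 0.11 for the sites of X. From cycle 8 to cycle 13, 8 were higher by 2-fold or more (32% of all sites) and 4 lower (26.3% of all sites). From cycle 13 to late cycle 14, 5 were higher (4.04% of all sites) and 1, sc +5132, was lower (25.8% of all sites). At 18 of the 22 the cycle 13 value lay between those of the other stages, as it did at 77.9% of all sites.

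These counts depend on the cycle 8 list, which rests on the same reads as the values. All 11 sites that were not in it were higher at late cycle 14, 10 of them by 2-fold or more, with a median log2 ratio of 2.47, and of all such sites in the genome 93.6% were higher. Of the 11 sites in the cycle 8 list 6 were higher and 5 lower, with a median of 0.02, while 28.0% of all sites in that list were higher and their median was -1.34. The 11 sites not in the list had 9 to 79 reads at cycle 8, and 9 of them (81.8%) had at least 3 times the median coverage of the arms, as did 79.0% of all sites not in that list.

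The sites were unevenly spread, with a median of 1593 bp between neighbours. The longest gap, 8378 bp, lay between sc +5132 and l(1)sc -153, that is between the sites with lower late coverage behind sc and the promoter of l(1)sc. No listed peak lay in the last 21950 bp of the window, nor from there to the first site near ase, 38092 bp from l(1)sc +9295. The highest coverage in that stretch up to 5000 bp before ase was 62.2, 48.2 and 46.9, below the coverage of every site of the window listed at the same stage. A run of 5935 bp within it, from 322600 to 328534, had no read in any of the libraries, so binding could not be seen there, and the next longest such run in the window was 66 bp.

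At ase, in contrast to the other 3 genes, no site stood in the promoter. Coverage at the start of ase was 11.9 (6.78 to 19.3), 7.42 (4.06 to 12.4) and 8.58 (4.80 to 14.2), and its highest value in the promoter (500 bp before to 150 bp after the start) was 20.0, 20.7 and 25.7. At the starts of the other genes it was 789.1, 1212 and 1663 for ac, 1509, 1221 and 1399 for sc, and 523.1, 546.9 and 735.1 for l(1)sc. ase -726, the listed site nearest to the start, had 37.8, 37.6 and 83.5 and was in the late cycle 14 list only.

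Further upstream, ase -2345 (352187) had 90.4 (75.1 to 107.9), 379.4 (352.1 to 408.3) and 792.8 (751.6 to 835.7), 8.77-fold higher (log2 ratio 3.13, 2.86 to 3.41). It was the only site near ase that was in the lists of all 3 stages and higher by 2-fold or more. ase -3390 had 6.67, 44.0 and 88.7. The strongest site by level, ase +5820 (360352), had 903.9 (853.9 to 956.1), 1139 (1092 to 1189) and 1251 (1199 to 1305), but lies downstream of the gene, close to the start of Cyp4g1 (361089 to 363366), a cytochrome P450 gene. Beside it ase +6300, in the cycle 8 list only, had 104.5, 58.3 and 53.2.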

How the data were processed

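For the deposited files, Bowtie 0.12.5 had placed the reads on dm3 and the authors kept reads with a unique place and called peaks in each library separately with Grizzly Peak. They deposited the mapped reads, 25 bp each and with no sequence letters, and peak lists whose heights are a coverage signal. No input library was used here. Coverage was computed from the reads, copies included, in Python 3.11.15, using numpy 2.4.6 and scipy 1.17.1. A site was centred on the highest summed scaled coverage within 150 bp of the mean interval midpoint. In ratios, read numbers under 3 were to be set to 3, which no site here needed. A 2-fold difference is called by size only. The functions were tested on simulated data.

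The dm3 positions of ac, sc, l(1)sc, y and CG32816 are those that the study lists for its genes. Those of ase, Cyp4g1 and pcl follow from the distances it lists with its peaks. The window, the members and the groups were chosen with earlier results of these data known. Sites are given with all values if they lie within 5000 bp of a gene, are among the 5 highest at any stage, or are among the 3 largest increases or decreases. The alternatives were other joining distances, peak heights at or above the list median, coverage in place of a listed peak, 300 bp counts, interval midpoints, 1 read per start, other scalings and 200 bp extension. With sequence not used here, TAGteam elements were not counted.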

Additional observations from a re-analysis of the deposited data

How the results depend on the processing

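With only peaks as high as the median of their list, 14 of the 22 sites were left. Taking coverage of at least 3 times the arm median in place of a listed peak, 20 sites in place of 9 were present at all 3 stages (90.9%, beside 85.5% of all sites). Among only the 9 sites in all 3 lists, 3 were higher by at least 2-fold from cycle 8 to late cycle 14, in place of 13 of 22. The 34.3% given above is over all sites of the genome and not over those in all 3 lists. The median log2 ratio of the 9 sites was 0.038, in place of 1.22 for the 22. With 1 read per start the median over the 22 was 0.77, and ac -81 turned from 1.02 to -0.84. The share of window reads at sites at the 3 stages was 55.9%, 56.0% and 59.5% within 75 bp, 89.3%, 88.1% and 89.3% within 300 bp, and 60.3%, 48.6% and 53.2% with 1 read per start. The count of sites lower by 2-fold was 3 to 6 in place of 4, within 1.5 times its value under the alternatives run. Scaling by reads outside sites moved the median of all sites by 0.25 and the median of ratios by 0.20 (log2). Leaving out a replicate was not possible with 1 library per stage, and the motif counts were not run. No paired analysis was possible because each stage has 1 library. In depth, the limit was set at the weak end by cycle 8 values of as few as 9 reads.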
